A study of Mus musculus with 6 samples.

Results

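The 100 immunoglobulin kappa V segments (Igkv) annotated as functional V genes were followed in RNA-seq libraries of mouse femoral bone marrow. They were taken as every row of the gene count table with the biotype IG_V_gene and a name starting with Igkv, 100 of 54532 genes, a rule that uses no measured value. Freshly isolated bone marrow cells came from wild-type mice without treatment (control 1 to 3) and from wild-type mice after 4 weeks of hindlimb unloading (unloaded 1 to 3). Unloading lifts the hind limbs so that they bear no weight, and it served as a model of disuse osteoporosis. Strain, sex, age and whether a library came from 1 animal or a pool are not stated in the labels. The p-values therefore measure the spread between these samples, which may be technical.

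A B cell builds its kappa light chain gene by joining 1 V segment to 1 of the J segments upstream of the constant gene Igkc, and a cell normally expresses 1 light chain. The V segment encodes most of the antigen-contacting domain, including the first and second complementarity-determining regions and the start of CDR3. In bone marrow, kappa transcripts come from small pre-B cells that are rearranging the locus, from immature and recirculating B cells, and from plasma cells, each of which holds many light chain transcripts. Segment usage, the share of all V reads that fall on one segment, is therefore a mixture over cells and over the amount of RNA per cell. In these bulk samples, fewer cells of a type and less RNA per cell cannot be told apart.

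The libraries held 15850986 to 17775506 counts. Markers of bone marrow were present in all 6 libraries, with the neutrophil granule gene Ngp at 10217 to 12870 CPM, reads scaled to library size with TMM factors. The unloaded 1 library stood apart from the rest. Its score on principal component 1 (34.8% of the variance) was 51.3, where the other 5 libraries scored -13.7 to -7.37. Only 0.439% of its counts were mitochondrial, compared with 1.05% to 1.27% elsewhere. Results that rest on it are therefore given without it or library by library.

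Kappa V transcripts were a small part of the marrow RNA, and their summed level differed more between libraries than between the group means. The 100 segments together took 5628, 8663 and 6272 counts in control 1 to 3, and 6832, 8367 and 4255 counts in unloaded 1 to 3. On the CPM scale their sum was 322, 522 and 368 in the controls and 435, 493 and 263 in the unloaded samples. The highest library was a control and the lowest an unloaded one, with the groups overlapping at 404 ± 105 and 397 ± 120 CPM (SD, n = 3). Without unloaded 1 the unloaded mean was 378 CPM. The constant gene Igkc, which every kappa transcript carries, was at 837, 1248 and 978 CPM in controls and at 1408, 1266 and 777 CPM after unloading, again overlapping. For each 100 Igkc counts there were 38.5, 41.9 and 37.7 Igkv counts in the controls and 30.9, 38.9 and 33.8 in the unloaded libraries, a ratio of raw counts that is not scaled for length. Unloaded 1 had the fewest V counts for its Igkc counts.

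**Figure D1:**
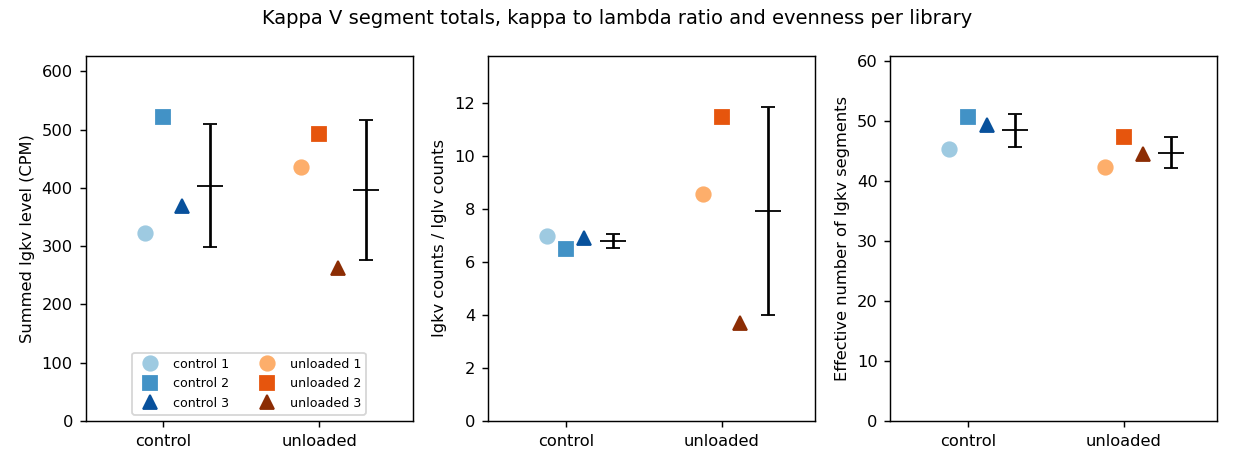
Points are the 6 libraries, and black bars give the mean ± SD of 3 libraries beside them; the panels show the summed Igkv level in CPM, the ratio of Igkv to Iglv counts, and the effective number of Igkv segments. The 3 controls sit between 6.49 and 6.98 in the middle panel, while the unloaded libraries run from 3.70 to 11.5.

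The ratio of kappa to lambda segments varied more among unloaded than among control libraries. Mouse B cells use kappa far more than lambda, whose few V genes are Iglv1, Iglv2 and Iglv3. The ratio of Igkv to Iglv counts was 6.98, 6.49 and 6.88 in control 1 to 3, and 8.55, 11.5 and 3.70 in unloaded 1 to 3. The 3 controls lay close together and the unloaded libraries lay on both sides of them. For the constant genes, the Igkc to Iglc ratio was 11.1, 9.04 and 10.5 in the controls and 16.3, 15.4 and 7.28 after unloading, again with unloaded 3 the lowest and the other unloaded libraries above every control. Iglv1 itself was at 34.7, 53.8 and 43.3 CPM in controls and at 36.0, 27.7 and 59.0 CPM after unloading, so that unloaded 3, the library with the least kappa, held the most Iglv1. Heavy chain V segments (Ighv) tracked kappa closely in total, since the ratio of Igkv to Ighv counts stayed between 1.12 and 1.24 in all 6 libraries. Among J segments, which the deposited table counts separately, Igkj1 to Igkj5 summed to 149 to 337 counts per library, too few to follow usage. Igkj5 had the most counts in 5 of 6 libraries (55 to 108 over all 6), and Igkj4 had the most in control 2, with 86 against 62.

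Usage was broad. Of the 100 segments, 98 had at least 1 count in some library and 76 had counts in all 6, while Igkv1-131 and Igkv8-26 had none. A count of 0 allows a share of up to 0.0346% to 0.0705% of Igkv counts (3 counts of each library's Igkv total), and this limit, like the intervals below, covers counting error only. There were 38 segments with a mean share of at least 1%, and 19 with fewer than 20 counts over all libraries. The 10 segments with the highest mean share together held 34.8% of Igkv counts. Segment lengths were similar, from 338 to 501 bases in the deposited table, and the same 10 led when counts were divided by length.

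The first place belonged to Igkv1-117 (ENSMUSG00000094335; mm10 chromosome 6, 68121046 to 68121827, plus strand). Its share of Igkv counts was 5.92%, 3.37% and 5.82% in control 1 to 3, and 4.92%, 4.11% and 12.1% in unloaded 1 to 3. It was thus within the control range in 2 unloaded libraries and highest in unloaded 3, where it was the leading segment. Igkv1-110 (68270485 to 68271267, plus strand) had shares of 8.07%, 2.77% and 8.51% in controls and of 2.87%, 2.82% and 3.24% after unloading. It led in control 1 and control 3, and in control 2 it was as low as in the unloaded samples. These 2 segments, with Igkv2-112 and Igkv14-111 between them, are 96.8% identical over their transcripts, so the split of reads between them depends on a few positions. Their last 75 bases, from GENCODE M21 (GRCm38, the mm10 assembly), are shown because they carry the start of CDR3 that a cell using the segment keeps. Capitals mark the codons for tyrosine, then tyrosine or phenylalanine, then cysteine that close framework region 3, and the bases after them open CDR3.
Igkv1-117: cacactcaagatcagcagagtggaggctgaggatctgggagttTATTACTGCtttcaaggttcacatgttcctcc
Igkv1-110: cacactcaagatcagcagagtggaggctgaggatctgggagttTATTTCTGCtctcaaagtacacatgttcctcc
The capitalised pattern was found, on the coding strand, in the last 100 bases of 97 of the 100 segments.

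Below these, Igkv10-96 had a mean share of 4.0% over the 6 libraries and ran from 1.71% to 5.69%. Igkv15-103, the 1 member of its subgroup, had 3.20% (1.76% to 4.61%), and Igkv6-15 had 3.00% (1.65% to 5.19%). Dividing by length placed Igkv6-15 and Igkv5-39 above Igkv15-103. The neighbours in this order did not differ beyond their spread between libraries. Igkv6-23 was between 1.58% and 5.30%, Igkv3-2 between 0.908% and 4.92%, and Igkv17-127 between 1.07% and 5.04%. The remaining 2 of the first 10, Igkv5-39 and Igkv3-4, owed their place to 1 library each.

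**Figure D2:**
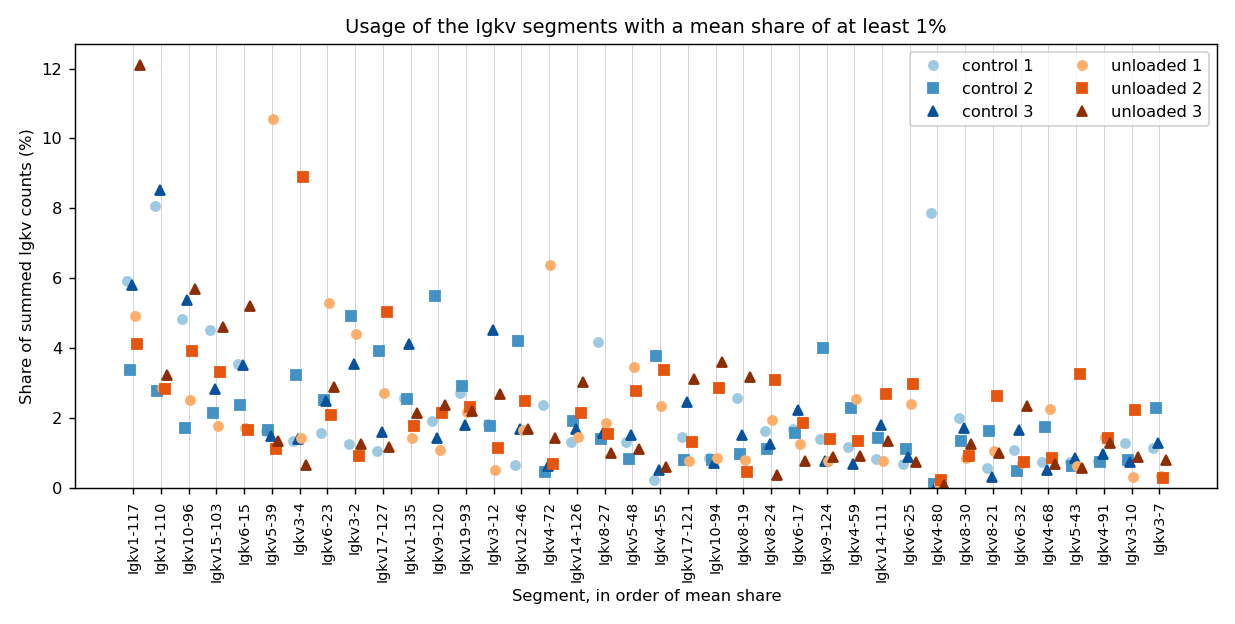
Each column is an Igkv segment with a mean share of at least 1%, and each point is its share of summed Igkv counts in 1 library (y axis, percent). Igkv1-117 reaches 12.1% in unloaded 3, Igkv5-39 reaches 10.6% in unloaded 1, Igkv3-4 reaches 8.89% in unloaded 2 and Igkv4-80 reaches 7.87% in control 1.

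Some segments were high in 1 library and low in the others. A segment was counted here when its share in 1 library was at least 1% and at least 3 times its median over the 6 libraries. This held for 17 of 100 Igkv segments, 10 with their maximum in a control and 7 in an unloaded library. Heavy chain segments gave 13 of 113 by the same measure. Such segments held 11.1%, 12.7% and 4.15% of Igkv counts in control 1 to 3, and 24.2%, 12.2% and 3.6% in unloaded 1 to 3. Unloaded 1, the library that also stood apart over all genes, had the largest such share, from 4 segments, and the part of its other differences in this was not tested. Every library thus had at least 1 such segment.

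Igkv4-80 (69016558 to 69017080, minus strand) was the most uneven. It had 443 counts in control 1 and 3 to 19 in the others, so its share was 7.87% (95% Wilson interval 7.20% to 8.60%) there and at most 0.227% elsewhere. It was the second most used segment of control 1, and it did not pass the low-count filter for testing. Igkv5-39 (69900424 to 69900977, minus strand) held 10.6% of Igkv counts in unloaded 1 (9.85% to 11.3%) and 1.12% to 1.65% in the other libraries, and it led that library. In the same library Igkv4-72 held 6.38% (5.83% to 6.99%), Igkv5-45 4.03% (3.58% to 4.52%) and Igkv3-1 3.25% (2.85% to 3.70%). The next highest libraries for these 3 were at 2.36%, 0.478% and 0.338%. Igkv3-4 (70671788 to 70672377, plus strand) held 8.89% in unloaded 2 (8.30% to 9.52%), against 3.22% in control 2 and 0.658% to 1.42% in the rest. In control 2, Igkv8-28 held 4.21% (3.81% to 4.66%) and Igkv4-63 1.49% (1.25% to 1.77%), where no other library passed 0.478% and 0.287%.

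The 3′ ends of these segments are given for reference, with the same codons in capitals. Not all of them are distinctive. From the capitals on, Igkv4-72 has the same bases as Igkv4-59, Igkv4-68 and Igkv4-71, and Igkv3-4 the same as Igkv3-5.
Igkv4-80: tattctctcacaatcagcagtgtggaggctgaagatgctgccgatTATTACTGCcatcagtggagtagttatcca
Igkv5-39: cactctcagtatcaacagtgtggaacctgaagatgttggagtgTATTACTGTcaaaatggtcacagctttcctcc
Igkv4-72: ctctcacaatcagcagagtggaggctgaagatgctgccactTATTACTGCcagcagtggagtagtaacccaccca
Igkv3-4: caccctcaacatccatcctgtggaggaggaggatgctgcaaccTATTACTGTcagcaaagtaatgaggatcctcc
Igkv3-1: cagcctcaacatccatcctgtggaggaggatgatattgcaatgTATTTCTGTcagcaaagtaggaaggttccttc
Igkv8-28: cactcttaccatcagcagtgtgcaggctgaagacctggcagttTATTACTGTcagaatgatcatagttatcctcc

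Near-identical copies peaked together in some cases and apart in others. Of the 17 segments with a peak, 6 have a nearest copy that is at least 95% identical. Igkv9-124 and Igkv9-120 (95.2% identical) were both highest in control 2, at 4.01% and 5.48% of Igkv counts. Igkv13-84 and Igkv13-85 (96.3%) were both highest in control 3, at 1.2% and 0.941%. In the other 4 the copy was highest in another library. Igkv5-45 (69775750 to 69776344) and Igkv5-43 (69823355 to 69823943), both on the minus strand, are 96.9% identical and share a run of 193 bases, and their last 75 bases are the same. The copies were named for this comparison after their values were seen.
Igkv5-45: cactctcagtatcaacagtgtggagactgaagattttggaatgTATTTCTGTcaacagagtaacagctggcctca
Igkv5-43: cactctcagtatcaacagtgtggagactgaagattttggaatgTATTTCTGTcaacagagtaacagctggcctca
Counts for Igkv5-45 were 19, 25, 13, 275, 40 and 5 from control 1 to unloaded 3, and for Igkv5-43 they were 42, 53, 54, 43, 273 and 24. The first peaked in unloaded 1 and the second in unloaded 2, and neither peak was mirrored in the other copy. Igkv8-28 also stood apart from Igkv8-19, which is 97.6% identical: in control 2 it had 365 counts and Igkv8-19 had 84. Over all members, the nearest other kappa V gene or pseudogene was 65.1% to 98.7% identical, with a median of 91.9%. For 23 segments it was at least 95% identical, and these held 31.2% of Igkv counts. Reads that fall in shared runs could not be assigned with certainty.

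**Figure D3:**
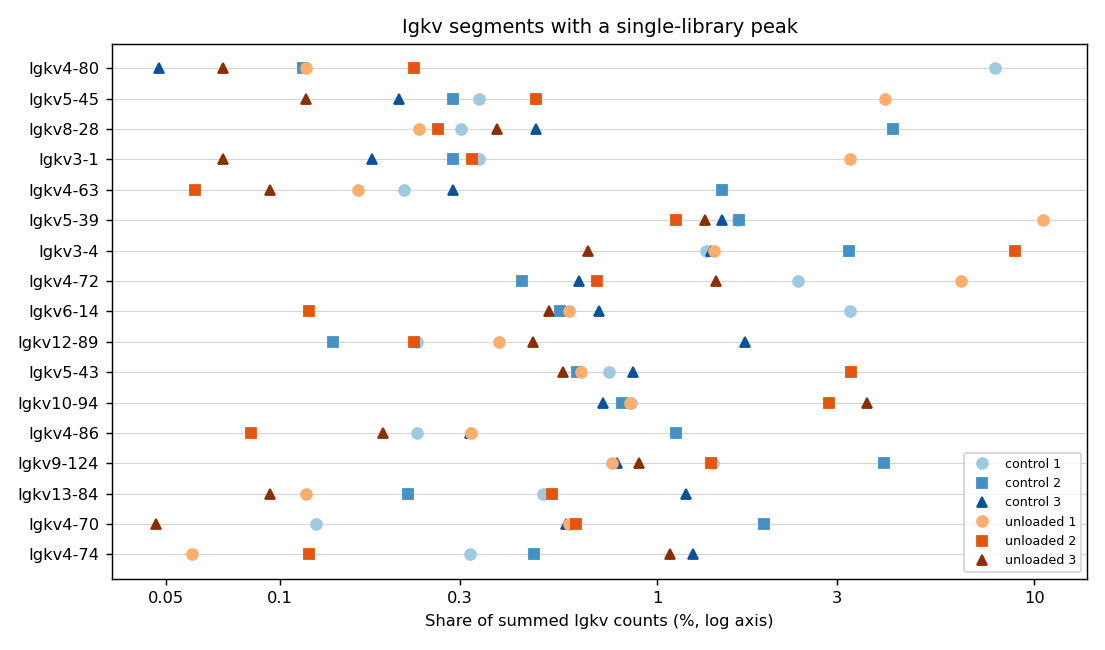
Rows are the 17 segments whose share in 1 library is at least 1% and at least 3 times their median, and points are the 6 libraries on a log axis of percent of summed Igkv counts. Most rows show 1 point far to the right of the other 5; Igkv10-94 has unloaded 2 and unloaded 3 both high, at 2.86% and 3.6%.

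Of the heavy chain constant genes, 0 of 7 tested were called, 5 were positive and 2 negative, and the median log2 fold change was 0.17. Ighg1 was at 23.1, 31.7 and 21.1 CPM in control 1 to 3, and at 89.8, 35.0 and 37.7 CPM in unloaded 1 to 3. Every unloaded value lay above every control (log2 1.10 ± 0.32, edgeR unadjusted p = 0.00593), but unloaded 2 and unloaded 3 were close to control 2. The highest was in unloaded 1, where 4 kappa peaks were found. The fold change thus leans on that library, and its value without unloaded 1 is not given here. Igha likewise did not overlap, at 1390, 1027 and 1253 against 1582, 1434 and 1400 CPM (unadjusted p = 0.0621). Ighg3 was at 3.83, 53.2 and 7.05 CPM in controls and at 37.0, 41.5 and 6.05 CPM after unloading, a split that ran across the groups. The part of these genes' cells in the kappa peaks was not tested.

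By subgroup, the number after Igkv in a gene's name, usage was spread over 20 subgroups, of which 7 had 1 member. There were 7 that reached a mean share of 5%. Igkv4, the largest with 26 members, held 16.3% ± 3.45 of Igkv counts in controls and 14.3% ± 4.75 after unloading (SD, n = 3), with no member above 13.0% of the subgroup's mean share. The difference of -1.95 percentage points was -4.67 without unloaded 1 and -0.289 without unloaded 3. Igkv1 held 16.0% ± 4.53 and 13.6% ± 5.53 with 10 members, of which Igkv1-117 made up 40.8%, and its difference ran from -5.62 percentage points without unloaded 3 to -0.573 without unloaded 2. Igkv6 was the steadiest of the 7, from 9.79% to 13.6% over all libraries. Igkv3 ran from 7.07% to 14.2%, Igkv8 from 6.84% to 11.4% and Igkv10 from 2.55% to 9.35%. All 7 overlapped between the groups.

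The Igkv5 subgroup varied most among these 7. It held 4.09%, 3.42% and 4.10% of Igkv counts in control 1 to 3, and 18.7%, 7.63% and 3.13% in unloaded 1 to 3. The group means were 3.87% ± 0.390 and 9.81% ± 8.0 (SD, n = 3), and the unloaded mean was 5.38% without unloaded 1. Its 4 tested members had positive fold changes, and 3 of its 5 members were among the 17 with a peak in 1 library. Igkv9 was at 9.68% in control 2 and at 1.90% to 3.57% in the other libraries. Of the single-member subgroups, Igkv15, Igkv16 and Igkv19 had mean shares of 3.20%, 0.919% and 2.35%, and Igkv7, Igkv11, Igkv18 and Igkv20 were at or below 0.0712%.

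**Figure D4:**
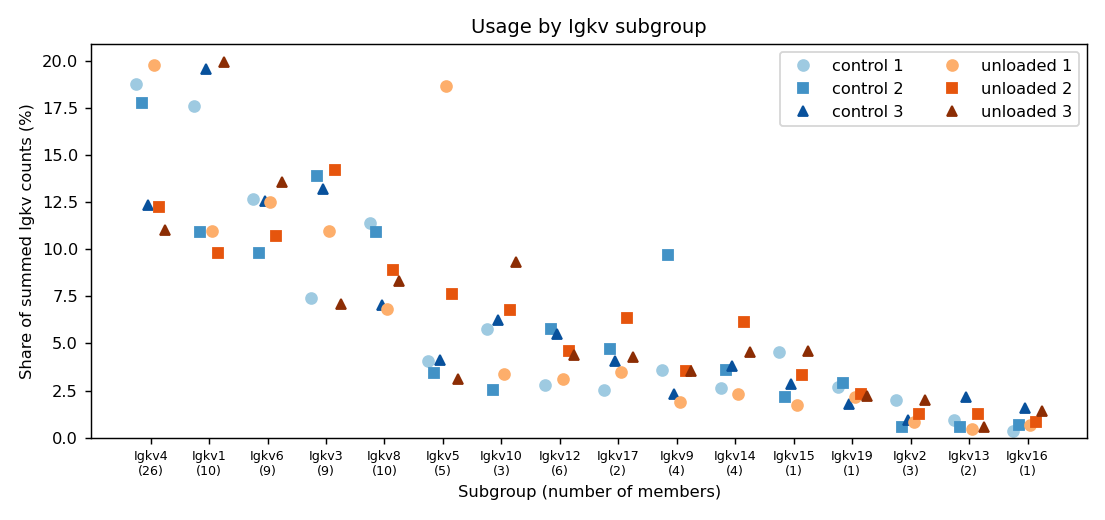
Columns are the Igkv subgroups with a mean share of at least 0.5%, with the number of members in brackets, and points are shares of summed Igkv counts per library in percent. Igkv5 lies at 18.7% in unloaded 1 and between 3.13% and 7.63% in the other 5 libraries.

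The Igkv locus lies on chromosome 6, and segments of either orientation are used, by deletion or by inversion of the intervening DNA. From the deposited coordinates, the segments lay 18.4 to 3166 kb from Igkj1, with 38 on the plus strand, the strand of Igkj1 and Igkc, and 62 on the minus strand. The plus-strand segments held 46.3% ± 4.91 of Igkv counts in controls and 44.3% ± 7.88 after unloading (SD, n = 3), so the 38% of segments on that strand took more than 38% of counts in 5 of 6 libraries, unloaded 1 being at 35.3%. Without that library the unloaded mean was 48.8%, above the control mean, but control 3, at 51.8%, was above every unloaded library. With the locus cut into 3 stretches of nearly equal segment number, the 34 segments nearest the J side held 34.7% ± 1.52 and 35.6% ± 5.42, and the 33 farthest held 41.8% ± 3.01 and 41.3% ± 12.1. Without unloaded 1 the unloaded means were 32.7% and 47.7%, so both differences from the controls turned. The middle 33 segments, with means of 23.5% and 23.1% (19.5% without unloaded 1), held the least in 5 of 6 libraries, at 17.1% to 25.2% there and at 30.3% in unloaded 1. The farthest stretch was at 42.8%, 38.4% and 44.1% in the controls and at 28.5%, 43.0% and 52.5% in unloaded 1 to 3. The unloaded libraries lay on both sides of the controls.

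Evenness was measured as the effective number of segments, the number of equally used segments that would give the same Shannon entropy. It was 45.4, 50.7 and 49.4 in control 1 to 3 and 42.3, 47.4 and 44.4 in unloaded 1 to 3, or 48.5 ± 2.76 and 44.7 ± 2.56 (SD, n = 3), with overlap. The unloaded mean was 45.9 without unloaded 1. Thinning every library to 4255 Igkv counts left 48.3 and 44.6. The 10 most used segments of a library held 40.0% to 47.9% of its Igkv counts. The single most used segment held 8.07%, 5.48% and 8.51% in controls and 10.6%, 8.89% and 12.1% after unloading. These do not overlap, but the segment was a different one in each unloaded library: Igkv5-39, Igkv3-4 and Igkv1-117. With 3 libraries against 3 no permutation test could go below 0.1, and no test was made on values summed over the members. Heavy chain segments had effective numbers of 46.3 to 53.2, and their most used segment overlapped between the groups.

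Segment levels were then compared between marrow unloaded for 4 weeks and control marrow. Of the 100 segments, 70 passed the low-count filter of edgeR's quasi-likelihood test, and 0 were called at an adjusted p under 0.05, as was the case for 0% of the 15015 genes tested. The smallest adjusted p among the members was 0.422. At an unadjusted p under 0.05 there were 19 segments, 6 higher and 13 lower. That is 27.1% of those tested, where over all genes tested the share was 5.85% (2.67% higher and 3.18% lower). Heavy chain segments were also above that share, at 18.1% of the 72 Ighv tested (6 higher and 7 lower). DESeq2 called 4 members at an adjusted p under 0.05, 1 higher and 3 lower, where it called 0.266% of all genes tested. By limma-voom 0 were called and 11 were below 0.05 before adjustment, against 5.8% of all genes. The shares at unadjusted p have to be read with the spread: the median biological coefficient of variation was 0.441 for Igkv, 0.369 for Ighv and 0.151 for all genes tested. In 12 of the 19 the control and unloaded values overlapped, including all 6 higher ones, and 7 of the 19 were among the 17 segments with a peak in 1 library. Groups did not overlap for 0 higher and 7 lower segments, 10% of those tested, against 11.9% of all genes (5.46% higher and 6.4% lower). Without unloaded 1 there were 2 higher and 10 lower, against 12.9% and 13.4% of all genes. The median log2 fold change of the 70 was -0.16, beside 0.01 for all genes tested, with 31 positive and 39 negative. With a library left out, the median of the tested segments ran from -0.42 (without unloaded 2) to 0.08 (without control 2), so its sign was not stable.

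Among lower segments, Igkv3-7 (70607437 to 70608036, plus strand) had the smallest p. It was at 3.66, 11.9 and 4.70 CPM in control 1 to 3 and at 1.53, 1.41 and 2.10 CPM in unloaded 1 to 3, so every unloaded value lay below every control. The log2 fold change was -2.0 ± 0.44 (SE; edgeR adjusted p = 0.422, DESeq2 adjusted p = 0.00255), and -1.31 without control 2. Its share of Igkv counts was also lower, at 1.14%, 2.27% and 1.28% against 0.351%, 0.287% and 0.799%. The segment most like it, Igkv3-12, is 96.7% identical and was at 10.6 ± 5.55 and 4.95 ± 2.47 CPM (SD, n = 3), with overlap. Its log2 fold change was also negative, at -1.09 ± 0.43 (SE; edgeR unadjusted p = 0.0278, adjusted p = 0.804). The 2 segments end in the following bases.
Igkv3-7: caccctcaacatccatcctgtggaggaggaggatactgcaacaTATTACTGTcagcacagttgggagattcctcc
Igkv3-12: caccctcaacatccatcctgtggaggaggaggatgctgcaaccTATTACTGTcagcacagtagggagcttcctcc

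Igkv1-110, the second most used segment, was at 26.0, 14.5 and 31.4 CPM in controls and at 12.5, 13.9 and 8.52 CPM after unloading. The groups did not overlap in level, although control 2 and unloaded 2 nearly met. The log2 fold change was -1.04 ± 0.27 (SE; edgeR adjusted p = 0.636, DESeq2 adjusted p = 0.0387). As a share of Igkv counts it overlapped, since control 2 was at 2.77%. Its near-identical copy Igkv1-117 had a log2 fold change of 0.34 ± 0.18 (0.10 without unloaded 3), with 19.4 ± 1.94 and 24.5 ± 6.35 CPM (SD, n = 3). Igkv8-30 was at 6.41, 7.05 and 6.34 CPM in controls and at 3.76, 4.54 and 3.27 CPM after unloading, with every unloaded value below every control. The difference on the log2 scale was -0.77 ± 0.22 (SE; edgeR adjusted p = 0.683). Igkv4-61 was at 1.72, 1.87 and 3.52 against 0.446, 1.18 and 0.741 CPM, with -1.57 ± 0.45. Igkv4-63 had -2.92 ± 0.90, but this rested on control 2, at 7.78 CPM where the other 2 controls were at 0.686 and 1.06 CPM. Without control 2 its value was -1.07.

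The higher segments rested on 1 or 2 unloaded libraries. Igkv10-94 was at 2.75, 4.22 and 2.64 CPM in controls and at 3.70, 14.1 and 9.44 CPM in unloaded 1 to 3, with a log2 fold change of 1.5 ± 0.42 (SE; edgeR adjusted p = 0.668, DESeq2 adjusted p = 0.0440). Unloaded 1 lay within the controls, and without it the segment passed edgeR's test at an adjusted p of 0.0488 with a value of 1.88. With any other library left out it did not pass. Its close copy Igkv10-95 is 97.1% identical and had 3 to 11 counts per library. Igkv5-48 was at 4.18, 4.34 and 5.58 CPM in controls and at 15.1, 13.6 and 2.90 CPM after unloading, with unloaded 3 below every control (log2 1.16 ± 0.46). Igkv4-91 was at 2.46, 3.92 and 3.52 against 6.31, 7.01 and 3.33 CPM (0.75 ± 0.31). As a share of Igkv counts Igkv4-91 did not overlap, at 0.764%, 0.750% and 0.957% in controls and 1.45%, 1.42% and 1.27% after unloading. It was the only 1 of the 100 segments with every unloaded share above every control, while 8 had every unloaded share below. For Igkv5-45 and Igkv3-1 the log2 fold changes of 2.58 ± 0.99 and 2.29 ± 1.02 came from unloaded 1, and without that library they were 0.26 and -0.27. Leaving out 1 library likewise turned Igkv5-39 from 1.5 to -0.51 (without unloaded 1), Igkv4-72 from 1.51 to -0.18 (without unloaded 1) and Igkv3-4 from 0.98 to -1.15 (without unloaded 2).

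**Figure D5:**
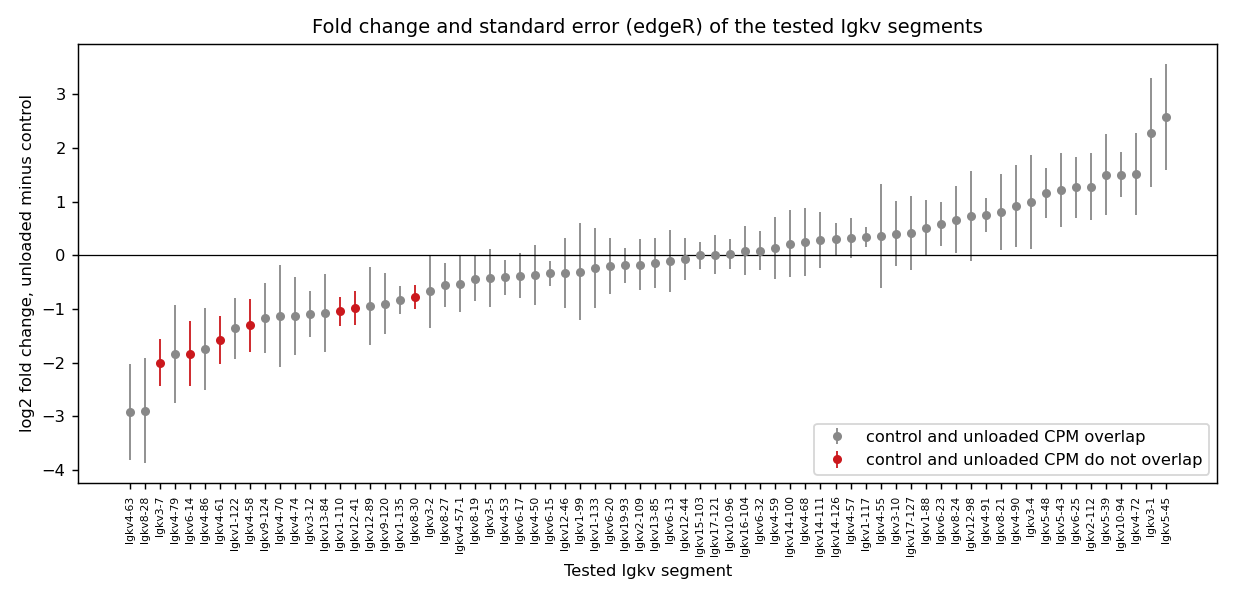
Points are edgeR log2 fold changes of the 70 tested segments, unloaded minus control, with bars of 1 standard error; red marks segments whose control and unloaded CPM do not overlap. The 7 red points all lie below 0, between -2.0 and -0.77, and Igkv4-63, Igkv8-28, Igkv3-1 and Igkv5-45, at both ends, have standard errors of 0.90 to 1.02.

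Other genes of light chain expression gave the setting for these values. The constant and J genes of kappa had 0 of 6 members called, with a median log2 fold change of -0.04, and 3 of 6 were negative. The lambda genes had 0 of 7 tested members called, 6 of them negative, with a median of -0.17. Genes of light chain recombination, the surrogate light chain and their regulators had 0 of 15 called, but 13 of 15 were negative, with a median of -0.25. Of the 15, 6 had an unadjusted p under 0.05, all lower, where 3.18% of all genes tested were lower at that level. The positive ones were Dntt and Vpreb2, at log2 0.06 and 0.16. From this list, Rag1, a subunit of the recombinase that cuts V and J segments, was at 99.1, 72.6 and 67.0 CPM in controls and at 40.9, 63.7 and 46.2 CPM after unloading. Irf4, a transcription factor that acts at the kappa enhancers, was at 88.0, 59.4 and 60.5 against 50.1, 50.5 and 44.6 CPM. In both, the groups did not overlap, and neither passed edgeR's test (p unadjusted 0.00466 and 0.00674). Over all genes tested, 6.4% had every unloaded value below every control. The smallest edgeR p of this list were those of Vpreb3 and Spib, unadjusted 0.00031 and 0.00035. Each had an adjusted p of 0.313, and every unloaded value lay below every control.

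Markers of cells that carry kappa chains overlapped between the groups in their summed level. In the mature B cell list 0 of 17 were called, 10 were positive and the median was 0.06. Ighm, the IgM heavy chain gene, was at 1077, 2880 and 1266 against 2158, 1941 and 783 CPM, with the same highest and lowest library as summed Igkv. The summed level of this list ran from 3187 to 4958 CPM in controls and from 2536 to 4937 CPM after unloading. In the plasma cell list 0 of 18 were called, 3 had an unadjusted p under 0.05 (all lower), 7 were positive and the median was -0.05, with summed levels of 1233 to 1393 and 1176 to 1303 CPM. Irf4, 1 of these 3, is also in the list of light chain recombination and is counted in each. The rest of these 3 were Pou2af1 and Sdc1. Pou2af1 was at 137, 118 and 119 against 95.5, 97.3 and 80.1 CPM (edgeR unadjusted p = 0.00242). Sdc1 was at 16.4, 22.8 and 14.8 against 9.69, 14.7 and 10.8 CPM (unadjusted p = 0.0145). For both, every unloaded value lay below every control, as for 6.4% of all genes tested. Jchain, which joins secreted IgM and IgA into polymers, was at 270.5, 373 and 284 against 267, 372 and 292 CPM. No member of either list was at 0 in all libraries, and the part of these cells in the Igkv values was not tested. Among markers of other marrow cells, fold changes were above 0 for 5 of 5 erythroid genes (median log2 0.42, 3 higher at an unadjusted p under 0.05) and for 7 of 8 T cell genes (median 0.39, 2 higher and 1 lower), and below 0 for 6 of 6 neutrophil genes (median -0.08), with 0 called. Their part in the Igkv values was not tested either. Beside the counts at an unadjusted p under 0.05 in these lists, 2.67% of all genes tested were higher and 3.18% lower.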

How the data were processed

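Bone marrow RNA of 3 control and 3 unloaded samples was sequenced and deposited by the authors as raw counts per gene, with gene lengths and coordinates on mm10. Per the submitters' processing notes, CASAVA, HISAT2 2.0.5 and featureCounts 1.5.0-p3 were used. The annotation release, strand and multi-mapping settings were not given in the sources used here, so reads from near-identical segments may have been dropped or split, and antisense reads cannot be told apart. A gene count also mixes germline and rearranged transcripts, and bases of CDR3 added at the joint are not seen.

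From the deposited counts, shares of the summed Igkv counts, TMM-scaled CPM and edgeR 4.0.16 quasi-likelihood tests (filterByExpr, 15015 genes, Benjamini-Hochberg adjustment over all of them, limma 3.58.1, R 4.3.3) were computed, with DESeq2 1.42.0 and limma-voom as alternatives, for 1 comparison. The scripts were tested on simulated data. A total of 27245 genes had no count. A floor of 3 counts equalled 0.169 to 0.189 CPM. Reads lack molecular identifiers, so intervals and limits cover counting error only. No 2 libraries agreed within sampling noise (chi-square per degree of freedom 7.20 to 38.3). The labels do not say that replicate numbers pair samples. Correlations of deviations between libraries of the same number were 0.031, -0.063 and 0.019, but 3 libraries per group cannot show that samples were unpaired.

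The members' rule uses no measured value, but this gene family and the gene lists were chosen for description with earlier results of these data known. Named segments were the 10 highest by mean share, the 5 smallest p in each direction, and up to 8 by the ratio of their highest share to their median. Igkv9 and the segments compared as near copies were named after their values were seen. Rag1, Irf4, Ighm, Ighg1, Igha and Ighg3 were picked from the gene lists by no set rule, and Vpreb3, Spib, Pou2af1 and Sdc1 by their p. Dntt and Vpreb2 were named for their positive sign.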

Additional observations from a re-analysis of the deposited data

How the results depend on the processing

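Across 413 recomputed values, 376 were scored as same, 17 as stronger, 7 as moved, 13 as reversed and 0 as weaker. For named segments, same meant an unchanged direction and side of the threshold. None was called in the main fit, so none could become weaker. For counts of segments, same meant within a ratio of 1.5. For other values it meant a shift below the SD within groups, and sign changes there were not scored as reversed. With a library left out, the median log2 fold change, the Igkv total and the Igkv3 and Igkv6 differences took either sign. The number of Igkv segments called was 0 with edgeR, 4 with DESeq2 (0.266% of all genes) and 24 of 98 with no low-count filter (0.671% of all genes), and it ran from 0 to 1 when each library was left out, the 1 being Igkv10-94 without unloaded 1 (0.0324% of all genes). The number at an unadjusted p under 0.05 was 19, with 11 by limma-voom (5.8% of all genes), 44 with no low-count filter (5.91%), and from 16 without control 1 (3.1%) to 28 without unloaded 3 (7.01%). With the replicate number as a block, 0 were called and 23 had an unadjusted p under 0.05 (5.06% of all genes), with a median log2 fold change of -0.08, and no call changed. The difference in effective number, -3.78, ran from -5.32 to -2.58 with a library left out. Without the 17 segments with a peak in 1 library, an alternative chosen after seeing the data, it was -0.0797, and the difference of the Igkv6 share went from 0.593 to 2.64 percentage points. The cause was not tested. Igkv15-103 turned from -0.0013 to 0.0172 with upper-quartile scaling and to 0.0014 with at least 1 CPM in 3 libraries. With a library left out, log2 fold changes ran from -0.23 to 0.30 for Igkv10-96, -0.29 to 0.24 for Igkv15-103, -0.51 to 1.99 for Igkv5-39, -1.15 to 1.87 for Igkv3-4, -0.0224 to 0.94 for Igkv6-23, -1.88 to 0.0613 for Igkv3-2, -0.42 to 1.5 for Igkv17-127, -0.27 to 2.85 for Igkv3-1 and -0.18 to 2.33 for Igkv4-72. Depth limits what can be seen for the 19 segments with fewer than 20 counts, and DESeq2 gave no adjusted p for 6 of the 70.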

Other observations

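Among 10527 genes outside the immunoglobulin biotypes with a mean of at least 5 CPM, those whose log2 CPM was most like summed Igkv over the 6 libraries were Zdhhc14 (Pearson r = 0.955), Zfp956 (0.954) and Usp30 (0.948). They were picked as the highest of many, so the values are a description with no test, and Zdhhc14 itself ran only from 17.1 to 19.4 CPM.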
